A study of Mus musculus with 21 samples.

Results

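Knockdown of Fbxl19 in mouse embryonic stem (ES) cells was compared with ES cells not titled as knockdown through the domains of monoubiquitinated histone H2B (H2Bub1) listed in each state. The members of the comparison were all 2937 domains of the ES list and all 1813 domains of the knockdown list, 4750 of the 42669 peaks and domains in the 8 lists of the series. An ES domain was counted as kept if it overlapped a knockdown domain by at least 1 bp and as lost if it did not, and a knockdown domain with no ES overlap was counted as new. Domains that overlapped were further sorted by how many domains of each list they joined.

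The series holds 21 samples of the J1 line in 12 groups, profiled by chromatin immunoprecipitation and sequencing (ChIP-seq), and by its title it concerns the placing of Rnf20 at CpG islands by Fbxl19 and the gain of H2Bub1 there. The ES group held 3 samples of J1 cells with no stated modification, and the knockdown group held 2 samples of J1 cells titled Fbxl19_KD. Both were precipitated with the same H2Bub1 antibody, and the stated culture medium, with leukemia inhibitory factor, is the same for both. The labels do not say how the knockdown was made, how far it lowered Fbxl19, or whether the samples of a group were separate cultures. Fbxl19 positions came from a pulldown of flag-biotin tagged Fbxl19 in 2 samples of a clone that expressed it at over 5 fold (OE-high) and 2 samples of a clone below the endogenous level (OE-low), and Rnf20 positions came from a single pulldown. These sites were therefore mapped in cells with added, tagged protein and not in the knockdown cells. Where the same measure was computed in the H2Bub1 lists of the OE-high clone, of J1 cells at day 4 of differentiation and of Fbxl19-KD cells at that day, the values are given side by side.

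H2Bub1 is a single ubiquitin on a lysine near the C-terminus of histone H2B, a mark found along transcribed gene bodies, where it accompanies elongating RNA polymerase II. Rnf20, with its partner Rnf40, is the E3 ligase that places it. Fbxl19 carries an F-box and a CXXC zinc finger, the latter a fold that binds unmethylated CpG-rich DNA of the kind found at CpG islands, which commonly overlap promoters, where a transcribed gene begins.

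Each group had 1 combined list, so no value per sample was at hand, no spread between replicates could be set against a difference, and no test was made. Intervals in the text are exact Clopper-Pearson 95% intervals and cover counting error only, and domains are not replicates of a condition. All domain ends lay on a grid of 200 bp. The track line of the ES list carries the number 60 with the suffix M and that of the knockdown list 46. What this number counts is not stated, depth per sample is unknown, and for these lists the number moved in the same direction as the number of domains. It did not do so over all H2Bub1 lists, with 46 and 7216 domains for OE-high, 36 and 5125 for differentiated cells, and 41 and 1090 for the differentiated knockdown. Its part in the results was not tested. The authors' domain score is used here only to rank domains within a list, and no domain of either list scored under 7.

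Close to equal numbers of ES domains were kept and lost in the knockdown, and new domains were fewer. Of the 2937 ES domains, 1405 were lost (47.8%, interval 46.0 to 49.7) and 1532 were kept. Of the 1813 knockdown domains, 326 were new (18.0%, interval 16.2 to 19.8) and 1487 were shared. With the ES list limited by score to as many domains as the knockdown list, 63.9% of ES domains were kept and 35.4% of knockdown domains were new. Most kept ES domains, 1215 of 1532 (79.3%, interval 77.2 to 81.3), met exactly 1 knockdown domain that met no other ES domain, and these are called 1 to 1 pairs. Another 73 ES domains were each split into several knockdown domains, 156 in all, and 230 ES domains were merged into 101 knockdown domains. The last 14 ES and 15 knockdown domains formed 7 groups in which several domains of each list were joined.

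**Figure D1:**
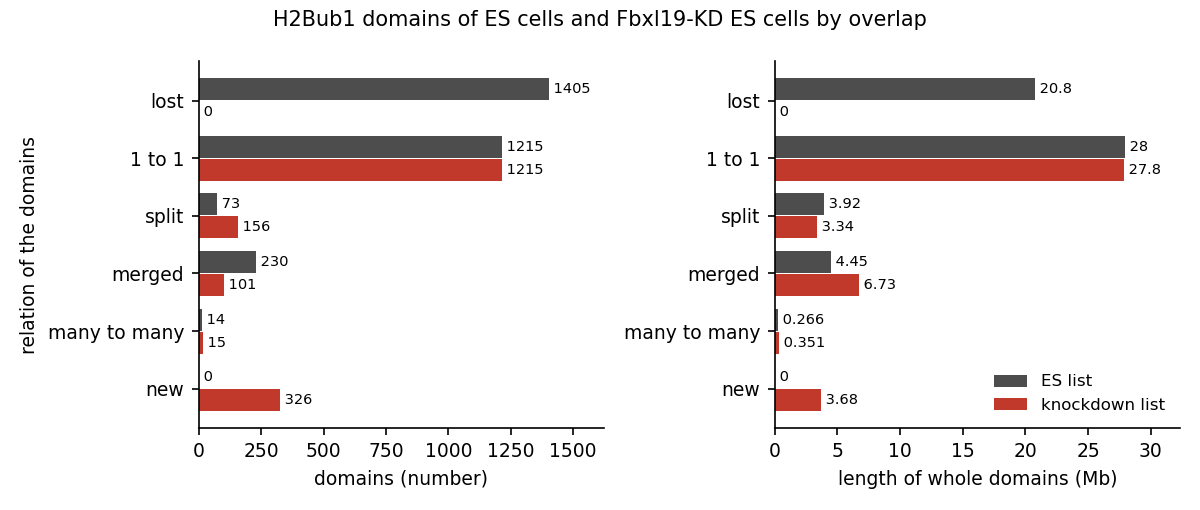
Number of H2Bub1 domains (left) and their summed length in Mb (right) in the ES list (grey) and the knockdown list (red), by how domains of the lists overlapped. The lost class (1405 ES domains, 20.8 Mb) is larger in number than the 1 to 1 class (1215 pairs) and smaller in length (28.0 Mb of ES domains), and the new class holds 326 domains and 3.68 Mb.

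The plot of classes by number and length shows that lost domains took a smaller share of the length than of the number. The lost domains had a median length of 5200 bp and summed to 20.8 Mb. The ES domains of 1 to 1 pairs had a median length of 10600 bp and summed to 28.0 Mb, and their knockdown partners summed to 27.8 Mb. New knockdown domains were as short as the lost ones, with a median of 5000 bp. Few lost domains came close to a knockdown domain: 11 of them lay within 1 kb of one and 35 (2.49%) within 5 kb, and the median distance to the nearest was 396200 bp. New domains lay nearer to ES domains, 55 of 326 (16.9%) within 5 kb, with a median distance of 123700 bp, in a list that holds more domains. At the other side of the overlap threshold, 1516 of the 1532 kept ES domains still counted as kept with an overlap of at least 50% of the shorter domain.

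In base pairs, both lists covered 31.9 Mb in common, which was 55.6% of the ES length and 76.0% of the knockdown length. The ES list alone covered 25.5 Mb. Whole lost domains made up 81.5% of that, 4.35 Mb was trimmed from kept domains in 962 segments, and 0.381 Mb lay in 91 gaps inside split domains. The knockdown list alone covered 10.1 Mb, of which new domains made up 36.6%. Segments added at the ends of shared domains came to 4.80 Mb in 1202 segments, and bridges between merged ES domains to 1.57 Mb in 136 segments. More base pairs were therefore added to shared domains and bridges than lay in new domains, whereas loss lay mostly in whole domains.

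The share of ES domains kept was higher for domains with a higher score and, above 1 kb, for longer domains. In deciles of the ES list by score, it was 25.5% in the lowest (interval 20.6 to 30.9) and 81.2% in the highest (interval 76.3 to 85.5), and no decile had a lower share than the one before it. Median length was 9800 bp in the lowest decile and 4800 bp in the highest, so the deciles kept more often were not those with longer domains. By length, the share was 24.4% for domains of 1 to under 2 kb, 51.2% for 5 to under 10 kb and 66.3% for 50 kb and over. The 111 domains under 1 kb stood apart, with 40.5% kept and a median score of 13.5, against 8.39 in the next length class.

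**Figure D2:**
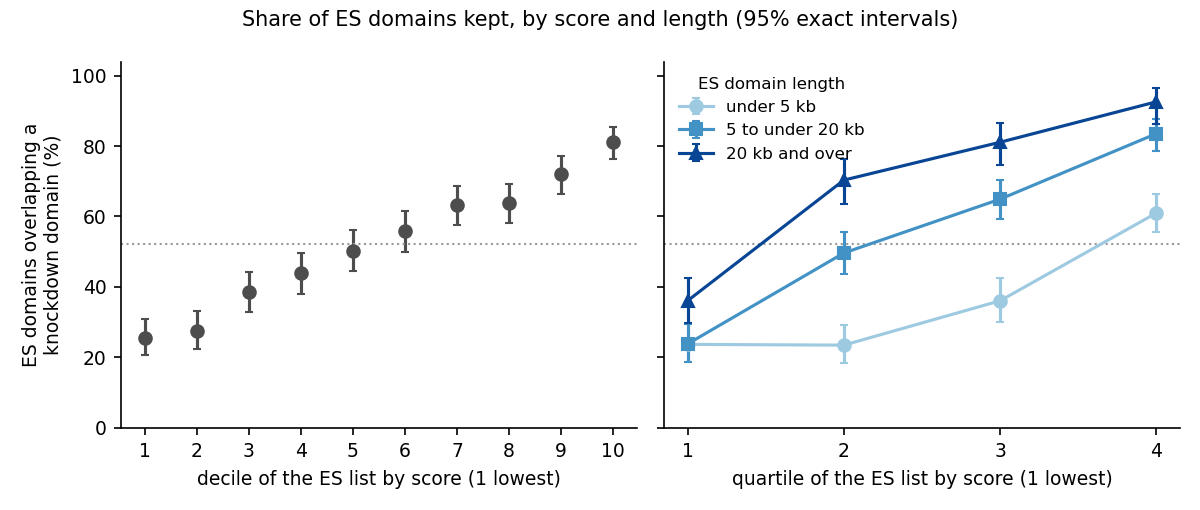
Percent of ES domains that overlapped a knockdown domain, by decile of the ES list by score (left) and by score quartile within 3 length classes (right). Points are shares, bars are exact 95% intervals for counting error, and the dotted line is the share over all ES domains (52.2%). The share goes from 25.5% to 81.2% over the deciles, and within the top quartile it is 61.0% under 5 kb and 92.6% at 20 kb and over.

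Score and length both separated kept from lost domains when the other was held within a class, as the plot of kept domains by score and length shows. Among domains under 5 kb, 23.7% were kept in the lowest score quartile and 61.0% in the highest. Among domains of 20 kb and over, the shares were 36.1% and 92.6%, the latter 112 of 121 domains. In the lowest quartile, domains under 5 kb and domains of 5 to under 20 kb had nearly the same share (23.7% and 23.8%). The share of new domains in the knockdown list ran the other way: 35.0% of the lowest score quartile was new (interval 30.6 to 39.6) and 8.17% of the highest (interval 5.82 to 11.1). Of the 223 knockdown domains of 50 kb and over, 12 were new (5.38%), against 31 of 70 (44.3%) under 1 kb.

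ES domains with an Fbxl19 summit at an end were kept more often than those with none, and they were also longer and scored higher. With a summit inside only, the share kept was higher over all lengths. Within each length class its interval overlapped that of domains with none, though only narrowly at 20 kb and over. Such overlap does not show that the shares were equal. With an OE-high Fbxl19 summit within 1 kb of an end, 58.7% of 1486 ES domains were kept (interval 56.1 to 61.2). With a summit inside but at no end the share was 57.9% of 418, and with none 40.5% of 1033 (interval 37.5 to 43.5). Median lengths in these groups were 9200, 23000 and 3800 bp, and median scores 9.79, 8.69 and 8.58. Within domains of 20 kb and over the shares were 70.8%, 65.4% (interval 58.9 to 71.5) and 49.5% (interval 39.7 to 59.4). Within domains of 5 to under 20 kb they were 60.5%, 52.9% (interval 44.7 to 61.1) and 50.3% (interval 44.7 to 55.9). Under 5 kb they were 44.7%, 29.4% (10 of 34 domains) and 33.5%. Domains with a summit at an end were thus kept more often than those with none in each length class, while score was not held within these classes.

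Counted per Mb, OE-high Fbxl19 summits were slightly less dense in the base pairs that both lists held than in lost domains and trimmed segments. OE-low summits were slightly denser in the shared base pairs, and Rnf20 midpoints were denser. There were 41.3 OE-high summits per Mb in the shared base pairs, 45.5 in lost domains, 46.7 in trimmed segments, 44.9 in new domains and 42.9 in added segments. Gaps of split domains (26.3) and bridges of merged domains (22.2) had fewer, from 10 and 35 summits. OE-low summits ran the other way, with 8.50 per Mb in the shared base pairs, 7.27 in lost domains, 7.59 in trimmed segments, 6.80 in new domains and 8.96 in added segments. Gaps (2.63) and bridges (1.9) again had fewer, from 1 and 3 summits. Midpoints of Rnf20 peaks were densest in the shared base pairs, at 40.0 per Mb, against 34.0 in lost domains, 29.1 in new domains, 27.6 in trimmed segments, 19.6 in added segments, 18.4 in gaps and 7.62 in bridges. These densities are descriptions of the lists, and length and score were not held in them.

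The lengths of 1 to 1 pairs centred on no change, with shortened and lengthened pairs in similar number. The median ratio of knockdown to ES length was 1.00, with quartiles of 0.871 and 1.18 and a range from 0.0385 to 19.1. Across the 1215 pairs, ES and knockdown length had a Spearman correlation of 0.890, a description of domains that share the same loci. With shortened defined as under 0.8 times the ES length, 241 pairs were shortened (19.8%, interval 17.6 to 22.2). With lengthened defined as over 1.2 times, 279 pairs were lengthened (23.0%, interval 20.6 to 25.4). The remaining 695 pairs (57.2%) lay between. Counting any difference, 524 pairs were shorter, 601 longer and 90 of equal length. Under 0.5 times the ES length there were 86 pairs (7.08%), and over 2 times 57 (4.69%).

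Shortened and lengthened pairs started from different ES domains. Shortened pairs had a median ES length of 11800 bp and a knockdown length of 5600 bp, with a median change of -5400 bp, and a median ES score of 9.25. Lengthened pairs went from a median of 6600 bp to 11000 bp, with a median change of 4200 bp, and had a median ES score of 11.3. The share lengthened was lower for longer ES domains, from 34.4% at 2 to under 5 kb to 9.66% at 50 kb and over. The share shortened varied less, from 17.8% to 23.8% over the same classes. ES length is part of the ratio, so these shares are descriptions of the pairs and not independent of it.

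Change of length was mostly a change at 1 end. The distance between an ES end and the matching knockdown end had a median of 400 bp, an upper quartile of 1800 bp and a largest value of 185800 bp. Both ends lay within 1 kb of the ES ends in 510 pairs (42.0%), exactly 1 end moved by over 1 kb in 590 (48.6%), and both moved in 115 (9.47%). Of the 115, 25 moved inward at both ends, 41 outward at both, and 49 inward at 1 and outward at the other. Among the 241 shortened pairs, 183 (75.9%) had moved at exactly 1 end, and among the 279 lengthened pairs 189 (67.7%) had. The shifts of the left and right end of a pair had a Spearman correlation of 0.0418 across pairs. An end on the same grid position in both lists was found at exactly 1 end in 430 pairs and at both in 67.

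Domain ends with an Fbxl19 summit moved less often than the opposite ends of the same domains. Of all 2302 ends in 1151 pairs with ES domains over 2 kb, 814 moved by over 1 kb (35.4%). In 700 of these pairs an OE-high Fbxl19 summit lay within 1 kb of exactly 1 ES end, which allows both ends of the same domain to be set side by side. The end with the summit moved by over 1 kb in 79 pairs (11.3%, interval 9.04 to 13.9). The other end moved in 379 pairs (54.1%, interval 50.4 to 57.9). The difference was 42.9 percentage points (interval 38.3 to 47.2, for counting error). The median distance was 200 bp at the end with the summit and 1400 bp at the other, and 35.9% of the former and 8.43% of the latter were on the identical grid position.

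Ends without the summit moved both ways. They moved inward in 25.7% of pairs and outward in 28.4%, while ends with the summit moved inward in 21 pairs (3.0%) and outward in 8.29%. The summit lay a median of 86.5 bp inside the ES end, and 603 of the 700 knockdown ends (86.1%) also lay within 1 kb of it. Of 124 shortened pairs with a summit at exactly 1 end, 102 (82.3%) had moved only at the end without it and 10 (8.06%) only at the end with it. Of 166 lengthened pairs, 112 (67.5%) had moved only at the end without it and 10 (6.02%) only at the end with it. In 38 split ES domains with a summit at 1 end, the outer knockdown end lay over 1 kb from the ES end in 5 cases on the side of the summit and in 25 on the other side.

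**Figure D3:**
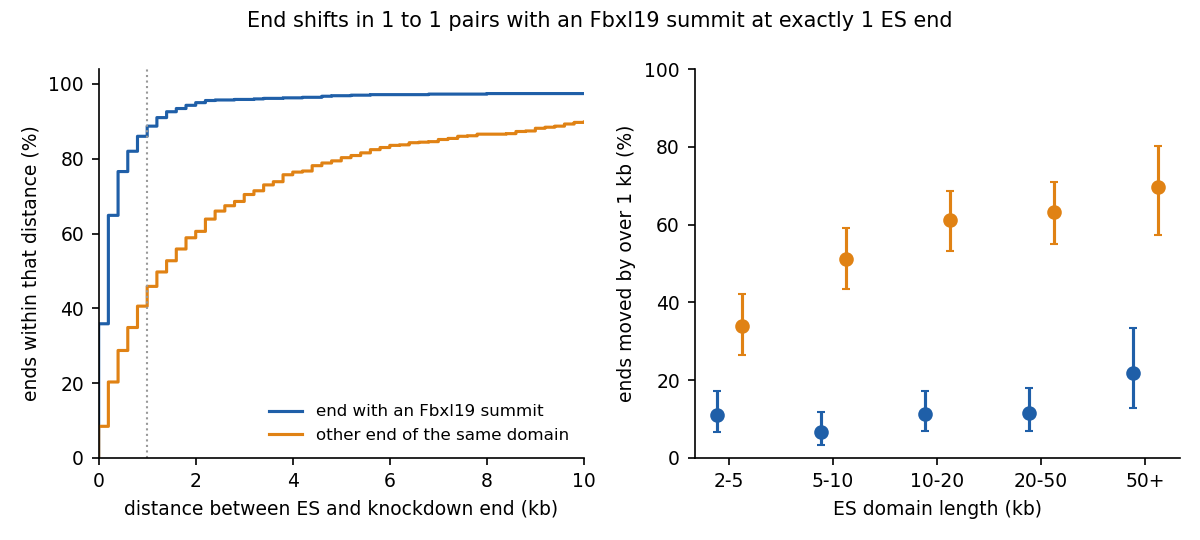
Left, cumulative percent of ends within a given distance (kb) of the ES end in the knockdown, for 700 pairs with an OE-high Fbxl19 summit within 1 kb of exactly 1 ES end, at that end (blue) and the other end (orange); the dotted line marks 1 kb. Right, percent of ends moved by over 1 kb by ES domain length, in the same colours, with exact 95% intervals for counting error. The blue share is 21.7% or lower in each length class, while the orange share goes from 34.0% to 69.6%.

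Ends with a summit moved less often than other ends in each class of length, score quartile and side examined, as the plot of end shifts shows for length. At 2 to under 5 kb, 11.1% of ends with a summit and 34.0% of other ends moved by over 1 kb. At 50 kb and over the shares were 21.7% and 69.6%. In the lowest quartile of ES domains by score, 8.62% of ends with a summit and 75.9% of other ends moved, the latter mostly inward (65.5% of pairs). In the highest quartile the shares were 8.51% and 46.8%, and other ends moved inward in 15.2% and outward in 31.6%. With the summit at the left end the shares were 11.8% and 53.5%, and at the right end 10.7% and 54.8%.

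Other marks of the same ends gave similar values. With OE-low Fbxl19 summits in place of OE-high ones, 134 pairs had 1 marked end, and 10.4% of marked and 53.7% of other ends moved. With Rnf20 peak midpoints, the shares were 11.6% and 54.1% in 344 pairs. In 270 pairs with both Fbxl19 and Rnf20 at the same end they were 10.7% and 56.3%, and in 430 pairs with Fbxl19 and no Rnf20 at that end 11.6% and 52.8%. In 72 pairs with Rnf20 and no Fbxl19 at that end they were 16.7% (interval 8.92 to 27.3) and 45.8% (interval 34.0 to 58.0). In each set the other end lacked the mark that picked the pair, but it could carry one of the other marks. These sets share pairs, and differences between them were not tested. In 419 pairs with no Fbxl19 summit at either end, 40.7% of ends moved, and in 32 pairs with a summit at both ends, 23.4% did.

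Ends with a summit also moved less often than other ends when ES domains were paired with the other 3 H2Bub1 lists. These comparisons share the ES list, and their values are given side by side. Of the ES domains, 52.2% were kept in the knockdown, 89.5% in the OE-high list, 74.9% in the differentiated list and 28.0% in the differentiated knockdown list. In pairs with the OE-high list, 24.4% of ends with a summit and 80.5% of other ends moved, and the other ends moved outward in 71.9% of pairs and inward in 8.63%. In pairs with the differentiated list the shares were 17.6% and 75.5%, and the other ends moved outward in 61.1% and inward in 14.4%. In pairs with the differentiated knockdown list they were 9.79% and 68.1%, and the other ends moved inward in 53.1% and outward in 14.9%. The median length ratio of 1 to 1 pairs was 1.00 with the knockdown list, and it was 1.84 with the OE-high list, 1.46 with the differentiated list and 0.791 with the differentiated knockdown list. Ends without a summit thus moved mostly outward in the OE-high and differentiated lists, mostly inward in the differentiated knockdown list, and either way in similar shares in the ES knockdown list, differences that were not tested.

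Split ES domains were long and merged ones short, as the definitions favour, since an undivided domain spans several of the other list. The 73 ES domains that were only split had a median of 32400 bp and their knockdown pieces 6600 bp. For the 230 that were only merged the medians were 7200 bp and, in the knockdown, 33000 bp. A total of 80 kept ES domains (5.22%, interval 4.16 to 6.46), those in groups of several domains included, met at least 2 knockdown domains, and they had a median length of 31800 bp. An OE-high Fbxl19 summit lay inside 67 of the 80 (83.8%) and an Rnf20 midpoint inside 35 (43.8%), against 53.5% and 36.1% of all ES domains and 71.4% and 48.7% of those of 20 to under 50 kb. The 91 gaps inside split domains had a median of 1200 bp, 17 of them were of 200 bp, and 42 were at most 1 kb. A total of 244 kept ES domains (15.9%, interval 14.1 to 17.9) shared a knockdown domain with another ES domain. They had a median length of 7200 bp, and 101 of them (41.4%) held an Fbxl19 summit and 64 (26.2%) an Rnf20 midpoint, against 54.7% and 30.1% of all ES domains of 5 to under 10 kb. The 136 bridges between them had a median of 1700 bp, with a largest of 408600 bp. Both counts depended on short gaps: with domains of a list closer than 5 kb joined first, 23 ES domains were split and 83 merged. They were also lower, at 16 and 25, with the top 50% of each list by score, and with lists of the same size 86 were merged.

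New knockdown domains held an Fbxl19 or Rnf20 position less often, counted per domain, than shared ones. An OE-high Fbxl19 summit lay inside 132 of 326 new domains (40.5%) and 907 of 1487 shared knockdown domains (61.0%). A summit lay within 1 kb of an end in 31.0% and 55.8%, and an Rnf20 midpoint inside 23.9% and 42.6%. Among ES domains, a summit lay inside 47.2% of lost and 59.2% of kept domains, an Rnf20 midpoint inside 30.1% and 41.5%, and an OE-low summit inside 8.90% and 15.3%. Shared domains were longer in both lists, with medians of 11000 bp against 5000 bp for new domains, and length was not held in these shares. Per Mb, new domains held 44.9 OE-high summits and 29.1 Rnf20 midpoints. The base pairs in both lists held 41.3 and 40.0.

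Single regions, the extremes of each class, were named by a rule on length and on number of domains, with positions on the mm9 build. They are not typical of their class in size. The longest pairs with both ends within 200 bp were chr4:145539800-145685999 in the ES list (146200 bp), chr8:19679600-19803199 (123600 bp) and chr4:145356600-145471599 (115000 bp). The second of these held 28 Rnf20 midpoints and 4 OE-high Fbxl19 summits, and its score was 24.4 in the ES list. The third held 11 Rnf20 midpoints and 5 summits. None of the 3 had a summit within 1 kb of an end, so in these an end stayed without one. Of all ES domains in 1 to 1 pairs, 61.3% had a summit within 1 kb of an end.

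The largest loss of length within a pair was at chr1:36568600-36766999, where 198400 bp in the ES list became 12600 bp in the knockdown. The right end was identical in both lists and had an Fbxl19 summit, and the left end lay 185800 bp further in. A summit also lay 1.04 kb inside this left ES end, just beyond the 1 kb window that marks an end. The region held 10 OE-high summits, others lying in the part that was lost, and its ES score was 7.05, near the lowest score of the list. A domain on chromosome 18 went from 213800 to 51600 bp in the same way, with an identical right end that had a summit. At chr8:71994400-72149399 a domain of 155000 bp became 26600 bp with outward shifts of -90800 bp at the left end and -37600 bp at the right, both inward, and a summit near the right ES end.

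The largest gain was at chr1:121312400-121318799, a domain of 6400 bp in the ES list. In the knockdown it spanned 122400 bp, with an identical right end that had an Fbxl19 summit and a left end 116000 bp further out. The ES domain had a score of 26.4, high in its list, and the knockdown domain a score of 7.20, near the lowest value of its own. At chr11:51576800-51595599 a domain grew from 18800 to 126000 bp, outward at both ends, by 29000 bp at the left end, which had a summit, and by 78200 bp at the right. At chr4:130219200-130333199 a domain grew from 114000 to 218400 bp, with 98600 bp of this at the left end, which had the summit, and 5800 bp at the right. In these latter cases the end with the summit moved.

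**Figure D4:**
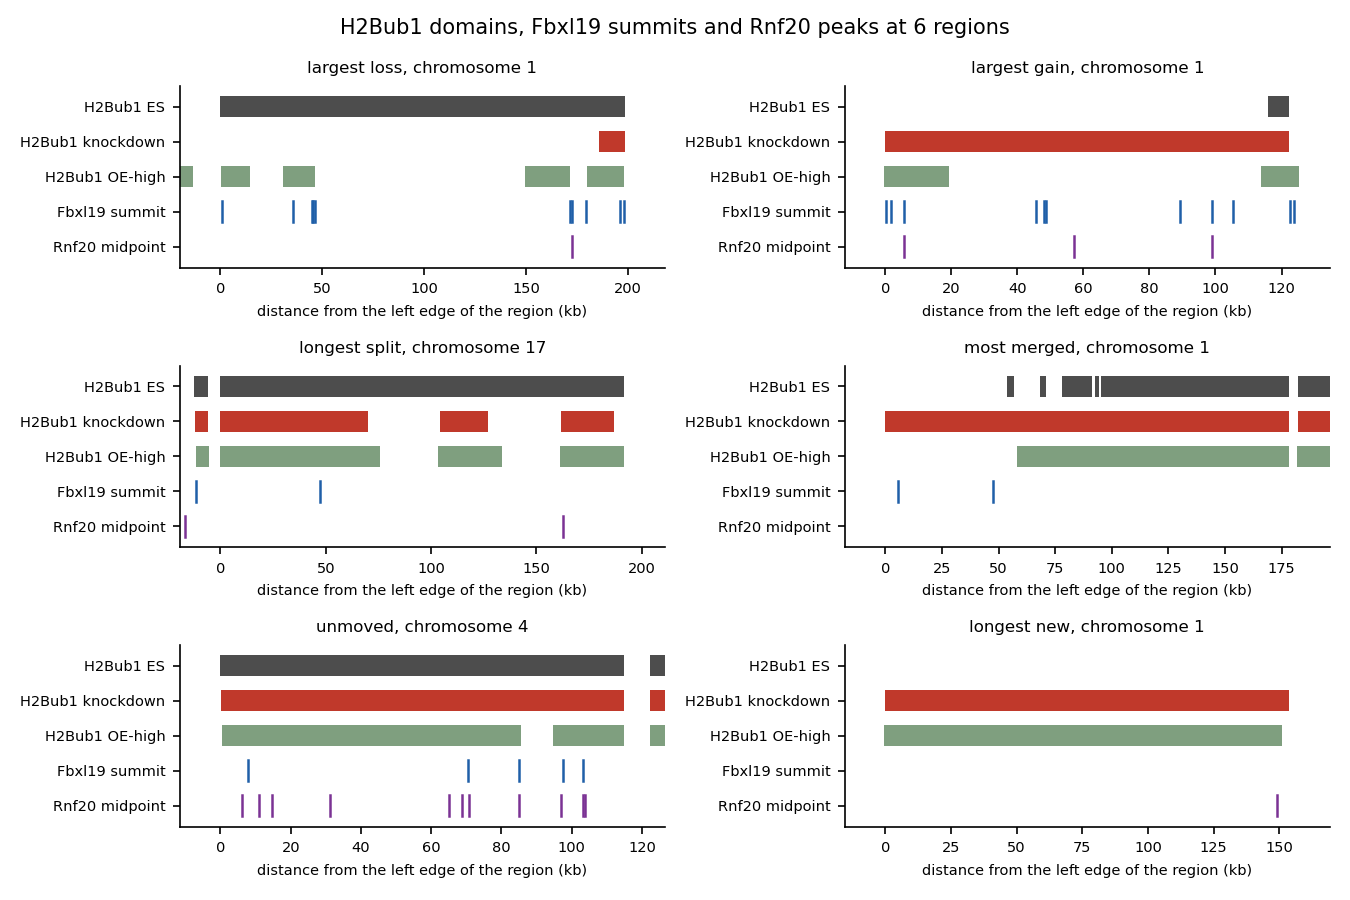
H2Bub1 domains of ES cells (grey), knockdown ES cells (red) and OE-high ES cells (green), OE-high Fbxl19 summits (blue ticks) and Rnf20 peak midpoints (purple ticks) at 6 named regions, with the distance from the left edge of each region in kb. In the largest loss (198400 to 12600 bp) and the largest gain (6400 to 122400 bp) the right end is the same in both lists and has a summit. In the largest loss another summit lies 1.04 kb inside the left ES end, the end that moved.

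The map of 6 regions also shows a split, a merger and a new domain. The longest split ES domain, chr1:34061800-34365199 (303400 bp), was broken by a single gap of 5800 bp. The second, chr17:17153600-17345399 (191800 bp), was listed in the knockdown as 4 pieces of 70000, 22800, 20800 and 4200 bp, with gaps of 34200, 34600 and 400 bp. The third, chr11:19824400-20013799 (189400 bp), had 2 pieces with a gap of 1200 bp. The knockdown domain that joined the most ES domains, chr1:93811400-93989799 (178400 bp), covered 5 of them, of 1400 to 82600 bp. At chr11:45665000-45706799 another 5 ES domains were joined over gaps of 1400 to 3800 bp, and at chr1:91350200-91505799 4 were joined.

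The longest lost ES domains scored low, as long ES domains often did. ES domains of 50 kb and over had a median score of 8.26, against 9.21 over the list, and 66.3% of them were kept. The longest lost were chr17:6219200-6674199 (455000 bp, score 8.19), the longest of the ES list, chr14:7108800-7442399 (333600 bp, score 7.01) and chr14:8074000-8326599 (252600 bp, score 7.85). They held 14, 2 and 2 OE-high Fbxl19 summits and 5, 2 and 3 Rnf20 midpoints. The longest new knockdown domains were chr8:72415800-72577399 (161600 bp), chr1:13214600-13368399 (153800 bp) and chr3:9460400-9610999 (150600 bp), with scores of 7.63, 7.07 and 7.23 in the knockdown list, and 5, 0 and 2 summits.

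Loss was uneven between chromosomes. Chromosomes 1, 11 and 17 kept 252 of 349 (72.2%), 287 of 407 (70.5%) and 119 of 172 (69.2%) ES domains. Chromosome 14 kept 44 of 159 (27.7%, interval 20.9 to 35.3) and the X chromosome 12 of 41 (29.3%, interval 16.1 to 45.5). Chromosome 4 kept 39.4% and chromosome 9 39.5%, and the other autosomes lay between 40.6% and 55.4%. New domains were rare on the same chromosomes that lost most autosomal domains: 1 of 45 knockdown domains was new on chromosome 14, 3 of 74 on chromosome 9 and 7 of 98 on chromosome 4. On chromosomes 1, 11 and 17 the new share was 17.3%, 13.7% and 16.5%.

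**Figure D5:**
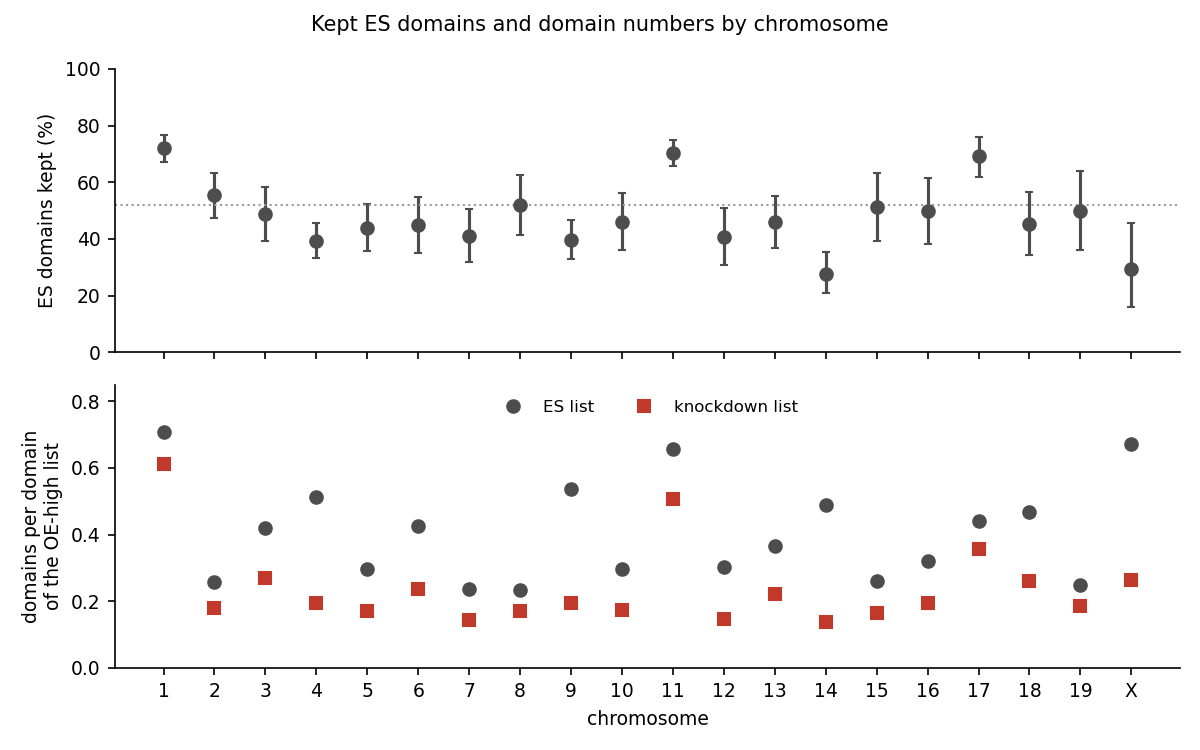
Top, percent of ES domains kept on each chromosome, with exact 95% intervals for counting error and a dotted line at the share over all chromosomes (52.2%). Bottom, number of H2Bub1 domains in the ES (grey circles) and knockdown (red squares) lists per domain of the OE-high list. Chromosomes 1, 11 and 17 have the highest kept shares (72.2%, 70.5% and 69.2%), and chromosomes 1 and 11 the highest knockdown values in the lower plot (0.611 and 0.507).

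The plot by chromosome also gives the number of domains per domain of the OE-high list, the longest H2Bub1 list, as a common scale for chromosomes of unequal size and gene content. Per OE-high domain, chromosome 1 had 0.708 ES and 0.611 knockdown domains, chromosome 11 0.655 and 0.507, and chromosome 17 0.441 and 0.356. Chromosome 4 had 0.514 and 0.194, chromosome 9 0.537 and 0.194, and chromosome 14 0.489 and 0.138. Chromosome 1 also had the highest value in the differentiated list (0.854) and in the differentiated knockdown list (0.308). Chromosome 11 came next in both, at 0.821 and 0.254.

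The chromosome sets differed in the share kept within each score quartile. Among autosomes, the highest kept shares were on chromosomes 1, 11 and 17 and the lowest on chromosomes 4, 9 and 14. A difference in kept share between these sets is therefore built in by their choice. Chromosomes 1, 11 and 17, a set chosen after the values were seen, had a median ES score of 9.63 and kept 46.0%, 63.8%, 74.3% and 89.8% of domains in the 4 score quartiles from the lowest to the highest. Chromosomes 4, 9 and 14, chosen in the same way, had a median score of 9.54 and kept 12.8%, 31.3%, 40.0% and 57.6%. The other chromosomes, with a median score of 8.82, kept 105 of 420 domains in the lowest quartile and 41.8%, 58.3% and 70.8% in the next 3. Chromosomes 1, 11 and 17 held 61 of the 80 split and 162 of the 244 merged ES domains. They also held 658 of the 1532 kept ES domains and 31.6% of all ES domains. Without them, 43.5% of ES domains were kept, 2.17% of kept domains were split and 9.38% merged. The shares of moved ends were alike in both, with 11.7% of ends with a summit and 52.5% of other ends moved on chromosomes 1, 11 and 17, and 48 of 435 ends with a summit and 55.2% of other ends on the rest.

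Runs of neighbouring ES domains that were all kept or all lost are given for the longest of each. The longest run of kept ES domains held 19 neighbours at chr11:50992800-54355199, followed by 17 at chr1:87689800-91501199 and 16 at chr1:65233000-75215999. The longest run of lost domains held 21 neighbours at chr14:4201000-9001399. These covered 2.16 Mb with a median length of 84000 bp and a median score of 7.85, and 10 of them held an OE-high Fbxl19 summit and 5 an Rnf20 midpoint. Of all ES domains, 53.5% held a summit and 36.1% a midpoint, and of those of 20 to under 50 kb 71.4% and 48.7%. The latter class had a median length of 29600 bp, so its domains were shorter than those of the run. The next runs of lost domains lay on chromosome 9, 17 neighbours at chr9:41927000-51865199 and 14 at chr9:3404200-15122799, with median lengths of 6000 and 3700 bp. Spacing went with keeping to a smaller degree: 56.4% of ES domains with another within 10 kb were kept, and 39.7% of those with none within 1000 kb.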

How the data were processed

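Positions are on mm9, the build in the submitters' processing notes, which also list BWA 0.5.9-r16 and MACS without saying what each was used for. Per the file headers, the H2Bub1 lists are combined sets, 1 per group, with track names ending in BCP, a caller of broad domains. Their deposited columns hold positions, a score of the authors with no stated formula, and the domain length. The authors' Fbxl19 lists and the Rnf20 list, from 1 sample, hold a deposited score per peak that was not used. H2Bub1 and Rnf20 lists were read as counted from 0 and Fbxl19 lists from 1, an assumption that moves positions by 1 bp. Groups came from sample titles. Depth per sample is unknown, and input samples were not used here.

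Domains of both lists were joined into groups by overlap of at least 1 bp. End shifts are positive outward, and an end over 1 kb away counted as moved. Fbxl19 summits and Rnf20 midpoints within 1 kb of an end marked it, in ES domains over 2 kb. Regions named are the 3 longest unmoved (within 200 bp), split, lost and new, the 3 largest losses and gains, and the 3 knockdown domains joining most ES domains. Runs of neighbours and chromosome sets were chosen after their values were seen. The members, lists and measures were chosen with earlier results of these data known. Alternatives changed overlap, joining of gaps, list size, score, length, chromosomes and thresholds. Domains were not assigned to genes, since no mm9 annotation or sequence was used here. The code was tested on simulated data. Python 3.11.15, NumPy 2.4.6, SciPy 1.17.1 and matplotlib 3.10.9 were used.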

Additional observations from a re-analysis of the deposited data

How the results depend on the processing

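Of 57 alternatives over 6 results, 36 moved a value by less than its counting interval, and 21 by more. No difference between ends changed sign. The kept share of 52.2% fell below 50% under 2 of them, so that more ES domains were lost than kept: it was 48.1% with the top 50% of each list and 43.5% without chromosomes 1, 11 and 17. It was 63.9% with the ES list limited by score to the size of the knockdown list, 54.1% with domains of at least 2 kb and 56.4% without chromosomes 4, 9 and 14. The new share of 18.0% was 14.9% with domains closer than 5 kb joined, 35.4% with lists of the same size, 21.7% with the top 50% and 15.9% with domains of at least 2 kb. The split share of 5.22% was 1.62% with gaps joined, 2.27% with the top 50% and 2.17% without chromosomes 1, 11 and 17. The merged share of 15.9% was 5.83% with gaps joined, 7.43% with lists of the same size, 3.54% with the top 50%, 12.1% with domains of at least 2 kb and 9.38% without chromosomes 1, 11 and 17. The shortened share of 19.8% was 15.6% with lists of the same size, 7.08% under 0.5 times the ES length and 43.1% for any shorter length. The difference between ends of 42.9 percentage points was 34.4 for shifts over 2 kb (5.00% against 39.4%), and it ranged from 42.2 to 46.9 under the other alternatives. Leaving out chromosomes, and marking the knockdown end in place of the ES end, were chosen after seeing the data. Joining gaps and limiting lists change the number of domains by construction. Chromosomes 1, 11 and 17 had kept shares above that of all ES domains, and chromosomes 4, 9 and 14 below it. Leaving out the former therefore lowers the kept share by construction, and leaving out the latter raises it. A lower or higher limit on the length ratio likewise gives fewer or more shortened pairs by construction. For the other alternatives the cause was not tested.

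No paired analysis was possible because each group has 1 combined list, and for the same reason no replicate was left out. Depth is unknown, read counts were not analysed here, and the lists hold no value for regions below the lowest listed score, so less H2Bub1 and less depth in the knockdown set cannot be told apart.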
